A study of Mus musculus with 6 samples.

Results

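The transcription factor NRF2 (gene Nfe2l2), its inhibitor KEAP1 and 8 genes of glutathione, thioredoxin and linked pathways were followed in a mouse macrophage-like cell line given a miR-125b mimic. The 10 genes were taken by symbol (Nfe2l2, Keap1, Gclc, Gclm, Txnrd1, Srxn1, Prdx1, Gsr, Sqstm1 and Taldo1) from a table of 16665 genes, and all 10 were found. All 10 also passed the filter used for testing, a mean of at least 1 FPKM (fragments per kilobase of gene, scaled to the depth of the library) over the 6 libraries, as did 10166 genes in all.

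The cells were RAW264.7, an established line described in the labels as leukaemic mouse monocyte macrophages. Both groups were transfected: 3 libraries came from cells carrying the miR-125b mimic (labelled overexpression) and 3 from cells given a negative control (labelled wild type for miR-125b). The sources used here give no dose, time after transfection or arm of the microRNA, nor do they say whether the 3 libraries of a group were separate cultures. The p-values therefore measure the spread between these libraries, which may be technical. The series is titled for atherosclerosis and pyroptosis, and the comparison asks how cells with raised miR-125b differ from controls.

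NRF2 is held in the cytoplasm by KEAP1, an adaptor of a CUL3 ubiquitin ligase that marks it for degradation. Oxidants and electrophiles modify cysteines of KEAP1, and NRF2 then enters the nucleus, pairs with small MAF proteins and binds antioxidant response elements, while BACH1 competes for the same elements. Its targets make glutathione, reduce thioredoxin and peroxiredoxins, and supply NADPH. In macrophages these systems buffer the oxidants that the cells make themselves. NRF2 is controlled mainly at the level of protein stability, so its mRNA need not report its activity.

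The microRNA is shown because its seed, bases 2 to 8 (capitals), defines the sites searched in the members' 3′ UTRs. The mature strand, miR-125b-5p, is encoded by Mir125b-1 (chr9:41581940-41581961) and Mir125b-2 (chr16:77646279-77646300), both on the plus strand of GRCm38.p6, from RefSeq.
mmu-miR-125b-5p: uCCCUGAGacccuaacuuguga

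Sites complementary to the seed (CTCAGGGA, CTCAGGG or TCAGGGA) lay in the longest annotated 3′ UTR of 3 of the 10 genes, 30.0%, against 24.0% of 9313 tested genes with a 3′ UTR. Keap1 and Txnrd1 each held an 8mer and Srxn1 a 7mer. The sites are printed on the gene strand with 9 bases either side and the match in capitals. They start at base 576 of 972 in Keap1 (match at chr9:21230119-21230126, minus strand), base 1264 of 1667 in Txnrd1 (chr10:82897309-82897316, plus strand) and base 1076 of 2184 in Srxn1 (chr2:152110268-152110274, plus strand), on GRCm38.
Keap1: tcggaatccCTCAGGGAgagacagct
Txnrd1: ctgggccacCTCAGGGAagggatttg
Srxn1: caagatggcCTCAGGGttccaagag

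These 3 genes read higher with the mimic by 0.27 (Keap1), 0.15 (Txnrd1) and 0.17 (Srxn1) on the log2(FPKM + 1) scale, none of them passing the test. Without negative control 3, Keap1 stood at −0.05 and Srxn1 at −0.03. Once a trend on transcript length and GC was taken out of each library, with all 6 kept, they stood at 0.43 and 0.30 (limma adjusted p = 0.648 and 0.713). With both changes they stood at 0.22 and 0.19, so the sign turned under the first change alone. A seed match is a description of the sequence and does not show that the microRNA binds there.

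Antioxidant response elements were searched as TGACNNNGC on both strands of the RefSeq promoters (300 bases, from 250 before to 50 after a start, GRCm38.p6). Promoters were found for 8 members, with 3 starts for Txnrd1, and not for Gclc and Gsr. Matches lay in 5 of the 10 promoters, those of Nfe2l2, Gclm, Txnrd1, Srxn1 and Prdx1. Of all 32851 promoters 12.4% held one, and of 9879 promoters of tested genes 14.8%. The windows below are printed on the gene strand with the match in capitals, because they show the letters that these 5 promoters share. A match to these letters does not show that NRF2 binds there. In Nfe2l2 the match lay 240 bases before the start (window chr2:75704885-75704913, minus strand) and read TGACTCCGC. On the opposite strand it read TGACGGTGC 134 bases before the start in Gclm (chr3:122245413-122245441) and TGACAAAGC 92 bases before the second start of Txnrd1 (chr10:82859104-82859132). In Prdx1 it read TGACTCAGC, 133 bases before the start (chr4:116685456-116685484). In Srxn1 it read TGACCTAGC and began at base 29 after the start (chr2:152105542-152105570). These last 4 genes lie on the plus strand.
Nfe2l2: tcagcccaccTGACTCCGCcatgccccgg
Gclm: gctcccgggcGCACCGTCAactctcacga
Txnrd1: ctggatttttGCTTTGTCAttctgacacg
Prdx1: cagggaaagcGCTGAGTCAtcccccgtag
Srxn1: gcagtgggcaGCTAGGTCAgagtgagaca

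No promoter of Keap1, Sqstm1 or Taldo1 in the table held these letters, nor did the other 2 Txnrd1 windows, which says nothing of elements outside them.

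Depth recovered from the steps of the low FPKM values was 14.4 to 16.8 M fragments per library. The libraries matched the labelled cell type: 9 of 10 macrophage markers were above the filter, with Mrc1, a receptor of alternatively activated macrophages, at or near 0. The summed level of these markers was 7162 to 8635 FPKM in controls and 6407 to 6676 FPKM with the mimic. Most of this sum was Lyz2, at 6515 to 7838 FPKM in controls and 5720 to 5998 FPKM with the mimic. Mean Csf1r was 116 FPKM in both groups, and mean Ptprc was 21.2 FPKM in controls and 28.1 FPKM with the mimic. Of 10 markers of other cell types 3 were in the table, none above 0.0927 FPKM in any library. Negative control 3 stood apart. It had 13266 genes above 0, against 15141 to 15470 in the others. Its root mean square log2 difference was 0.58 from control 1 and 0.57 from control 2, which differed from each other by 0.19. It lay 0.39 to 0.49 from the mimic libraries. Named genes and gene-list medians carry values without it where these end or make a call or move a difference by over 1.5 times. Its part was not tested beyond that.

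None of the 10 members differed between the groups at a Benjamini-Hochberg adjusted p under 0.05 by limma (smallest adjusted p = 0.382, for Taldo1). Nor did any of the 10166 genes tested (0%). At an unadjusted p under 0.05, limma gave 0 of the 10 members, against 13.2% of all genes (1344), and limma voom on recovered fragments called 0 genes, with 1393 at an unadjusted p under 0.05. By the fitted differences 5 members were higher and 5 lower with the mimic. Their median log2 fold change was 0.041, the same to this precision as that of all genes tested (0.041). Without negative control 3 the medians were −0.038 for the members and −0.0064 for all genes tested. In 1 member, Taldo1, the groups did not overlap, a state found in 20.1% of all genes.

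**Figure D1:**
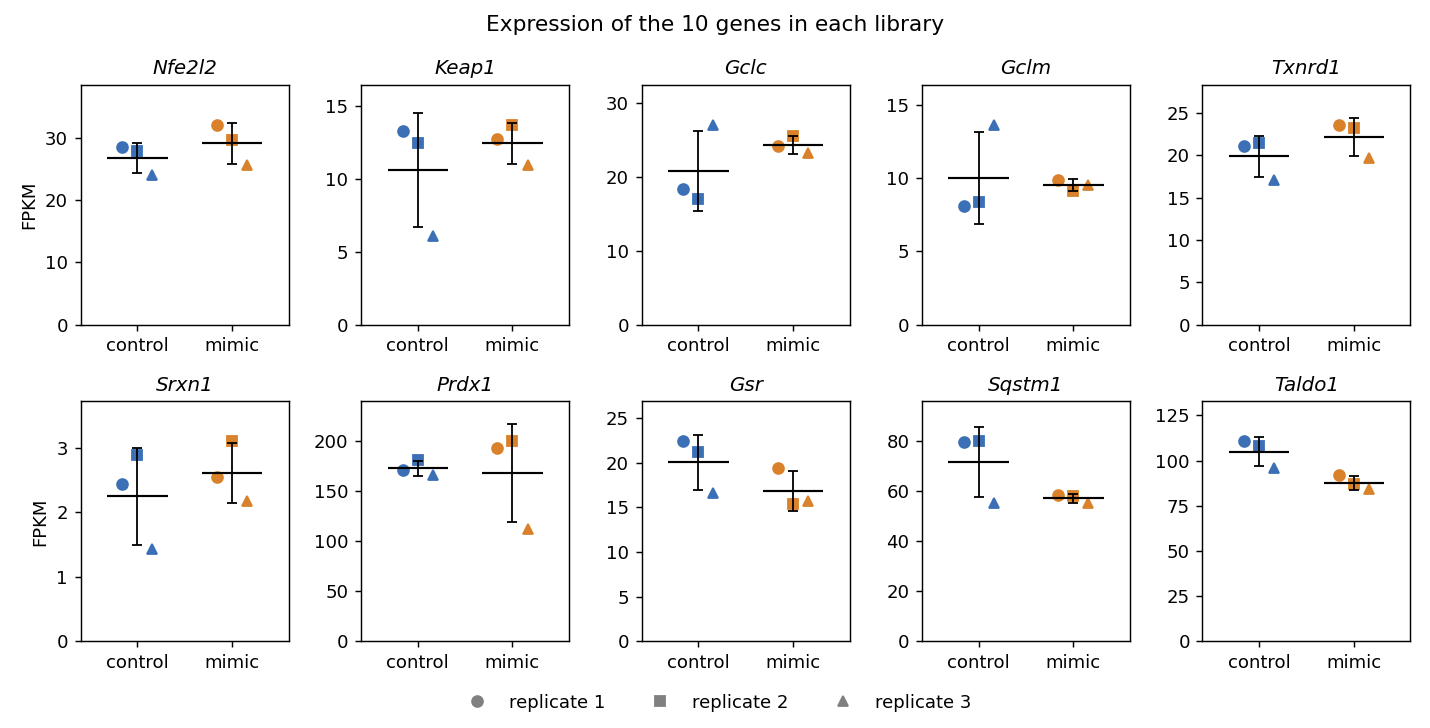
FPKM (vertical axes, each starting at 0) of the 10 genes in the 3 negative control libraries (blue) and the 3 miR-125b mimic libraries (orange); marker shape gives the replicate number, the long bar the mean and the error bar the SD. Negative control 3 (blue triangle) lies away from the other controls for most genes, at 6.11 FPKM for Keap1 and 27.1 FPKM for Gclc, and the groups are separate for Taldo1.

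Nfe2l2 (ENSMUSG00000015839, GRCm38 chromosome 2, 75675513 to 75704641), which encodes NRF2 itself, read 28.5, 27.9 and 24.0 FPKM in controls 1 to 3 and 32.1, 29.7 and 25.6 FPKM in mimics 1 to 3. The third library was the lowest of each group, and the groups overlapped. The means were 26.8 ± 2.44 and 29.2 ± 3.28 FPKM (SD, n = 3), with a log2 fold change of 0.11 (SE 0.13, 95% interval −0.19 to 0.42, limma adjusted p = 0.718). Without control 3 it was 0.04 (SE 0.11, limma adjusted p = 0.807).

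Keap1 (ENSMUSG00000003308, chromosome 9, 21229730 to 21239361), the NRF2 inhibitor, read 13.3, 12.5 and 6.11 FPKM in controls and 12.7, 13.7 and 10.9 FPKM with the mimic. Control 3 alone was low, with a difference of −0.96 from the mean of controls 1 and 2 on the log2(FPKM + 1) scale, and the other 5 libraries lay close together. The log2 fold change was 0.27 (SE 0.27, 95% interval −0.35 to 0.90, limma adjusted p = 0.672) with all libraries and −0.05 (SE 0.11) without control 3. With the trend on length and GC taken out it was 0.43, and without control 3 as well 0.22 (limma adjusted p = 0.365). Of the exon bases of Keap1, 10.9% are shared with Gm16754, an antisense gene that itself read 11.6 to 17.0 FPKM. The sources used here do not say whether counting used strand. The value of Keap1 is therefore uncertain.

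Within a library, the ratio of Nfe2l2 to Keap1 in FPKM was 2.15, 2.24 and 3.93 in controls and 2.52, 2.17 and 2.34 with the mimic. All libraries but control 3 thus lay between 2.15 and 2.52.

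Glutamate-cysteine ligase makes the first and limiting step of glutathione synthesis. Its catalytic subunit Gclc (ENSMUSG00000032350, chromosome 9, 77754535 to 77794485) read 18.4, 17.0 and 27.1 FPKM in controls and 24.2, 25.6 and 23.2 FPKM with the mimic. All mimic values lay above controls 1 and 2, and control 3 lay above all mimics. Mimic minus control gave a log2 fold change of 0.24 (SE 0.18, 95% interval −0.17 to 0.66, limma adjusted p = 0.559). Without control 3 it was 0.44 (SE 0.083, limma adjusted p = 0.0145), and once a trend on transcript length and GC was also taken out of each library it was 0.42 (SE 0.075, limma adjusted p = 0.0448). Without that trend but with all 6 libraries it was 0.21 (limma adjusted p = 0.801).

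The modifier subunit Gclm (ENSMUSG00000028124, chromosome 3, 122245557 to 122270732), which makes the enzyme more efficient, read 8.07, 8.38 and 13.6 FPKM in controls and 9.89, 9.11 and 9.56 FPKM with the mimic. The pattern was that of Gclc with a smaller step: mimics above controls 1 and 2, control 3 above all. Its log2 fold change was −0.03 (SE 0.19, 95% interval −0.49 to 0.42, limma adjusted p = 0.959), and 0.19 (SE 0.086, limma adjusted p = 0.153) without control 3. Free of the length and GC trend it was −0.27 (SE 0.12), and without control 3 as well −0.17 (limma adjusted p = 0.305). Of its exon bases 4.71% are shared with the opposite-strand Gm17494, at 0.329 to 0.469 FPKM, and 3.88% with the pseudogene Gm6061.

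The ratio of Gclc to Gclm in FPKM was 2.28, 2.03 and 1.99 in controls and 2.45, 2.81 and 2.43 with the mimic. Control 3 lay with the other controls here, and the groups did not overlap (means 2.10 ± 0.158 and 2.56 ± 0.213, SD, n = 3).

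Gsr (ENSMUSG00000031584, chromosome 8, 33652523 to 33698163) encodes glutathione reductase, which returns oxidised glutathione to its reduced form with NADPH. It read 22.4, 21.3 and 16.6 FPKM in controls and 19.4, 15.4 and 15.7 FPKM with the mimic. Control 3 fell inside the range of the mimics, and the other controls lay above it. The log2 fold change was −0.24 (SE 0.15, 95% interval −0.60 to 0.12, limma adjusted p = 0.522), and −0.36 (SE 0.12, limma adjusted p = 0.0643) without control 3.

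Txnrd1 (ENSMUSG00000020250, chromosome 10, 82833951 to 82897712) encodes cytosolic thioredoxin reductase, a selenoprotein that does for thioredoxin what glutathione reductase does for glutathione. It read 21.1, 21.4 and 17.1 FPKM in controls and 23.6, 23.3 and 19.6 FPKM with the mimic. As for Nfe2l2, the third library of each group was the lowest and mimic 3 lay below controls 1 and 2. Mimic minus control gave a log2 fold change of 0.15 (SE 0.14, 95% interval −0.17 to 0.47, limma adjusted p = 0.641), and 0.05 (SE 0.10) without control 3.

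The ratio of Txnrd1 to Gsr was 0.943, 1.01 and 1.03 in controls and 1.22, 1.51 and 1.25 with the mimic. Every mimic library lay above every control, control 3 included (means 0.994 ± 0.0456 and 1.33 ± 0.163, SD, n = 3). These ratios were picked by role with the members' values known, and carry no test. Of the 45 pairs of members, 11 (24.4%) had ratios that did not overlap between groups. Among all pairs of tested genes above 0 in every library the share was 19.2%, so the members' share lay near the background. In 10 of the 11 pairs the denominator was Gsr, Sqstm1 or Taldo1, and the other was Gclc over Gclm. The denominator was set by the order of listing, in which Gsr, Sqstm1 and Taldo1 come last. Pairs also share genes, so the 10 pairs are not separate results.

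**Figure D2:**
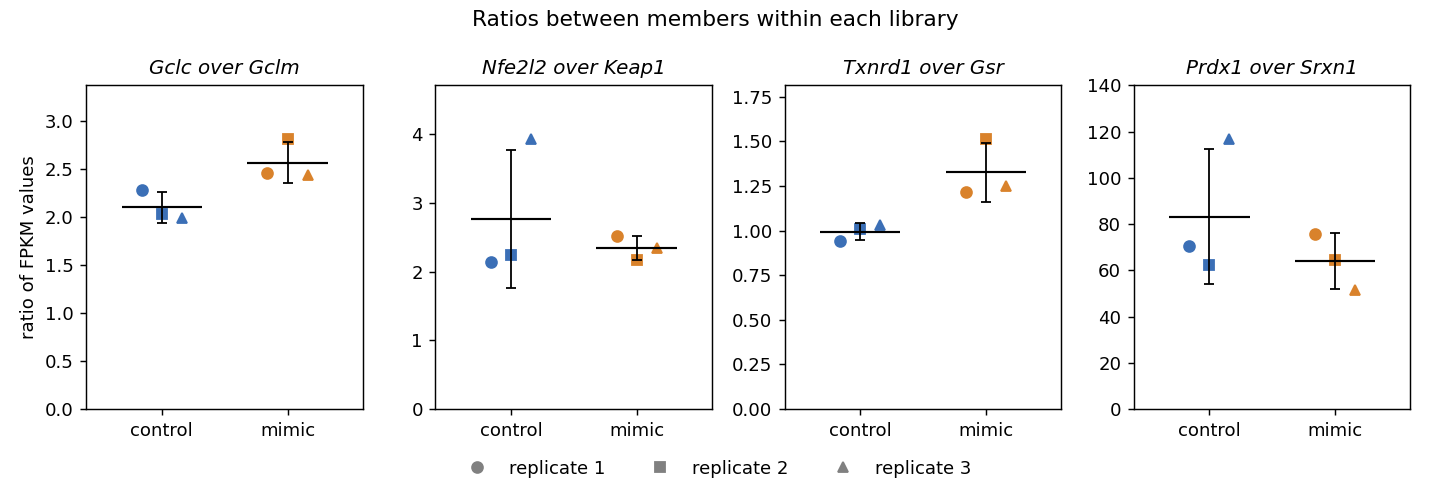
Ratios of FPKM values (vertical axes, each starting at 0) between pairs of members in each library, with controls in blue and mimics in orange; marker shape gives the replicate number, long bars are means and error bars SD. The groups are separate for Gclc over Gclm and for Txnrd1 over Gsr, and control 3 (blue triangle) stands alone at 3.93 for Nfe2l2 over Keap1 and at 117 for Prdx1 over Srxn1.

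Prdx1 (ENSMUSG00000028691, chromosome 4, 116685544 to 116700822) encodes a cytosolic peroxiredoxin, which thioredoxin reduces after it has removed a peroxide. It had the highest level per length of the 10 genes, at percentile 97.9 of mean FPKM over tested genes. It read 171, 181 and 166 FPKM in controls and 193, 199 and 112 FPKM with the mimic. Mimics 1 and 2 lay above all controls and mimic 3 below all. Its log2 fold change was −0.08 (SE 0.22, 95% interval −0.61 to 0.44, limma adjusted p = 0.892), and it turned to 0.19 (SE 0.11, limma adjusted p = 0.464) without mimic 3. It was also above 0 under quantile normalisation (0.11) and with array weights (0.087). Other settings kept it below 0: −0.11 without control 3 and −0.16 free of the length and GC trend. With both of these changes it was −0.29 (limma adjusted p = 0.504).

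Srxn1 (ENSMUSG00000032802, chromosome 2, 152105516 to 152111376) encodes sulfiredoxin, which repairs over-oxidised peroxiredoxins. It had the lowest level per length of the members, at percentile 18.2, and the fewest fragments, 59 to 145 per library. It read 2.43, 2.89 and 1.42 FPKM in controls and 2.55, 3.10 and 2.17 FPKM with the mimic. Control 3 was the lowest library and the other 5 overlapped. The log2 fold change was 0.17 (SE 0.21, 95% interval −0.32 to 0.66, limma adjusted p = 0.743), and −0.03 (SE 0.15) without control 3. It was 0.30 free of the length and GC trend, and without control 3 as well 0.19 (limma adjusted p = 0.525).

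The ratio of Prdx1 to Srxn1 was 70.4, 62.5 and 117 in controls and 75.7, 64.4 and 51.6 with the mimic. Control 3 alone was high, and the other controls lay within the range of the mimics.

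Sqstm1 (ENSMUSG00000015837, chromosome 11, 50199366 to 50210827) encodes p62, an autophagy receptor that binds KEAP1 and is itself an NRF2 target. It read 79.9, 80.0 and 55.5 FPKM in controls and 58.4, 58.3 and 55.2 FPKM with the mimic. Controls 1 and 2 were nearly equal and well above the rest, while control 3 lay within the narrow range of the mimics. The means were 71.8 ± 14.1 and 57.3 ± 1.81 FPKM (SD, n = 3), with a log2 fold change of −0.30 (SE 0.16, 95% interval −0.67 to 0.075, limma adjusted p = 0.456). Without control 3 it was −0.47 (SE 0.068, limma adjusted p = 0.00746), and also free of the length and GC trend −0.23 (SE 0.066, limma adjusted p = 0.113). Of its exon bases 17.3% are shared with Mrnip on the opposite strand, which read 0.159 to 0.583 FPKM.

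Taldo1 (ENSMUSG00000025503, chromosome 7, 141392199 to 141402968) encodes transaldolase of the non-oxidative branch of the pentose phosphate pathway, the source of much of the NADPH used above. It read 111, 108 and 95.6 FPKM in controls and 91.8, 87.1 and 84.0 FPKM with the mimic. Every mimic lay below every control, control 3 and mimic 1 being the nearest pair. Mimic values all below control values were found in 7.49% of tested genes. The means were 105 ± 8.04 and 87.6 ± 3.91 FPKM (SD, n = 3), with a log2 fold change of −0.25 (SE 0.11, 95% interval −0.51 to 0.0030, limma adjusted p = 0.382). Without control 3 it was −0.32 (SE 0.071, limma adjusted p = 0.0238). Free of the length and GC trend it was −0.04 (SE 0.082, limma adjusted p = 0.926), over 1.5 times smaller.

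Without control 3, then, 3 of the 10 members passed limma's test: Gclc higher, Sqstm1 and Taldo1 lower. That setting called 23.7% of all genes (2412 of 10166), 11.6% higher and 12.2% lower, so the members' share lay near the background. For Gclc and Sqstm1 the library left out did not bear the call out, since it lay beyond the mimic values for Gclc and among them for Sqstm1. For Taldo1 it lay between the other controls and the mimics. Free of the length and GC trend as well, 1 member passed, Gclc, against 2.73% of 10128 genes (0.691% higher). With library weights estimated by limma, under which 47.3% of all genes passed, 4 members did: these 3 and Gsr, which was lower. Control 3 lay below both other controls for 8 members and above both for Gclc and Gclm (56.6% and 35.5% of all genes). For 8 of 10 members its distance to the mimic mean was smaller than that to controls 1 and 2, against 65.7% of all genes. Mimic 3 was the lowest of its group for 8 members too.

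**Figure D3:**
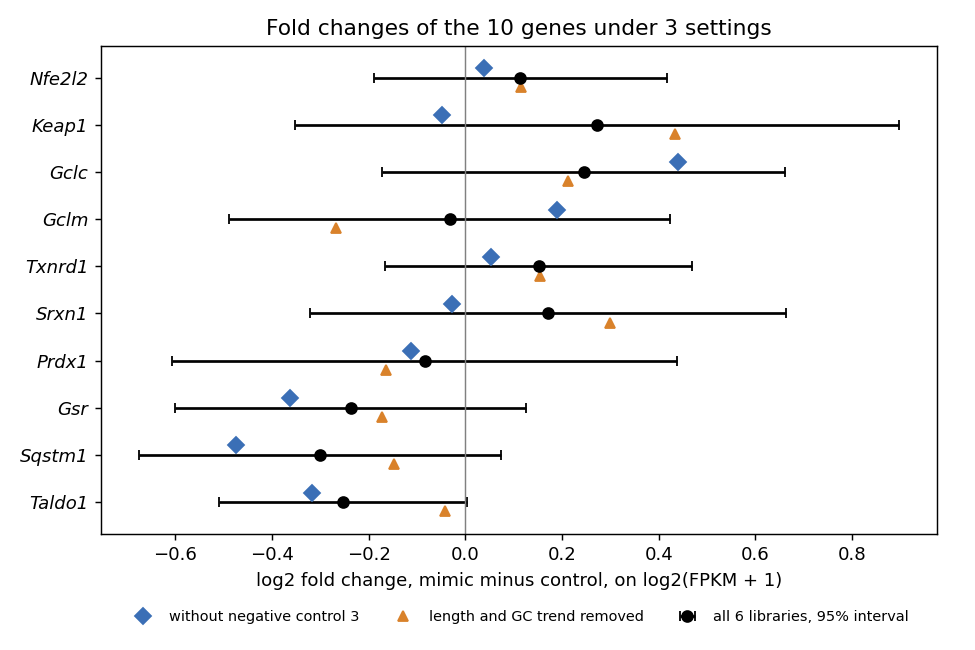
Log2 fold changes (horizontal axis, mimic minus control on log2(FPKM + 1)) of the 10 genes: black points with 95% intervals of limma's fit for all 6 libraries, blue diamonds without negative control 3, orange triangles with the trend on transcript length and GC removed. All 10 black intervals include 0; without control 3 the estimates of Keap1, Gclm and Srxn1 lie on the other side of 0.

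Per length, the order of the mean levels over the 6 libraries was Prdx1 (170 FPKM), Taldo1 (96.2), Sqstm1 (64.5), Nfe2l2 (28.0), Gclc (22.6), Txnrd1 (21.0), Gsr (18.5), Keap1 (11.5), Gclm (9.77) and Srxn1 (2.43). Neighbours from Nfe2l2 to Gsr in this order overlapped in their ranges over libraries, as did Keap1 and Gclm, and the other neighbours did not. The highest library exceeded the lowest by 1.32 times for Taldo1, the least, and by 2.24 times for Keap1, the most.

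The genes whose values over the 6 libraries were most like those of 3 members were found by the root mean square difference of centred log2 values. For Nfe2l2 they were Ncbp1 (0.025), Prune2 (0.030) and Abcb1b (0.030), where the median gene differed by 0.22. For Txnrd1 they were Wdfy1 (0.012), Bcl2l11 (0.021) and Ss18 (0.024), with a median of 0.23. For Gclm they were Arntl, Scp2 (0.038 each) and Rps19bp1 (0.043), with a median of 0.33, and each of them read highest in control 3.

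The wider pathways were described with 7 lists of 102 genes, of which 93 were in the table and 79 were tested. By limma 0 of the 79 passed (smallest adjusted p = 0.332), while at an unadjusted p under 0.05 there were 2 higher and 7 lower, against 7.96% and 5.26% of all genes. Of the 79, 56 (70.9%) had a fold change below 0, where 43.7% of all tested genes did. The median of the 79 was −0.13, and −0.21 without control 3. Groups were apart in 11 with the mimic below (background 7.49%) and in 4 with it above (12.6%). Without control 3, 21 passed limma's test, all of them lower, where 12.2% of all genes were called lower. Free of the length and GC trend as well, 8 passed, all lower (2.04% of all genes were called lower). The macrophage markers above leaned the same way, with 8 of 9 tested below 0 (median −0.10, and −0.15 without control 3). Ptprc alone was higher, at 0.41 (limma adjusted p = 0.347), with the groups apart. It stood at 0.57 (limma adjusted p = 0.00698) without control 3, and at 0.12 free of the trend with all 6 libraries. Also without control 3, 3 other markers passed, all lower: Cd68 (−0.50, limma adjusted p = 0.0108), Lyz2 (−0.39, 0.0280) and Spi1 (−0.28, 0.0292). Free of the trend as well, none of these 4 passed, with Ptprc at 0.10, Cd68 at −0.22, Lyz2 at −0.28 and Spi1 at 0.087. In all 6 libraries but free of the length and GC trend, 4 of the 9 tested markers were below 0. The median of the 9 was 0.054, while that of the 7 lists was −0.096. What part the makeup of the libraries has in these counts was not tested. In bulk RNA of this cell line, fewer cells making a transcript and less of it per cell cannot be told apart.

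Among 9 tested regulators of NRF2, 5 were higher and 4 lower (median 0.033). The median was −0.10 without control 3, and −0.086 free of the length and GC trend with all 6 libraries. Without control 3, 1 of them passed limma's test, Nfe2l1, at −0.42 (adjusted p = 0.0321). Nfe2l1 stood at −0.15 with all 6 libraries, and at −0.27 with control 3 left out and the trend removed (limma adjusted p = 0.179). Bach1, the repressor that competes with NRF2, read 10.4, 8.01 and 6.02 FPKM in controls and 12.8, 14.5 and 9.66 FPKM with the mimic. Only mimic 3 fell below a control, control 1. Mimic minus control gave a log2 fold change of 0.56 (SE 0.22, limma adjusted p = 0.355). It was 0.38 without control 3 (limma adjusted p = 0.171), and 0.20 free of the length and GC trend as well. Of the 3 small MAF partners, Maff (−0.35, SE 0.14, limma adjusted p = 0.368) and Mafk (−0.21, SE 0.13) read lower, and the Maff groups did not overlap. Mafg, named after its values were seen, stood at 0.03 (SE 0.12) with overlapping groups, and at −0.07 without control 3. Free of the length and GC trend and of control 3, Maff stood at 0.11 and Mafk at 0.02.

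Of 15 tested further NRF2 targets, 12 were lower and 3 higher (median −0.24). Haem oxygenase Hmox1 (249 ± 7.63 and 159 ± 36.0 FPKM, SD, n = 3; log2 fold change −0.66, SE 0.16) and the ferritin light chain Ftl1 (−0.71, SE 0.18), whose many pseudogenes make its value uncertain, had the smallest p, with mimics below controls in every library (limma adjusted p = 0.332 each). Biliverdin reductase Blvrb was next at −0.70 (SE 0.29, limma adjusted p = 0.364). Without control 3 all of these passed limma's test, Hmox1 at −0.65 (adjusted p = 0.0365), Ftl1 at −0.85 (0.00724) and Blvrb at −1.06 (0.00524). In all 6 libraries but free of the length and GC trend, they stood at −0.47, −0.42 and −0.49, and none passed. With both changes Hmox1 was −0.37 and Ftl1 −0.47 (limma adjusted p = 0.252 and 0.0638), while Blvrb passed at −0.77 (0.0308). Nqo1, the quinone reductase used widely as an NRF2 readout, lay under the filter, at 0 in 4 of the 6 libraries and at most 0.124 FPKM.

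Of 19 tested glutathione genes, 13 were lower and 6 higher (median −0.08, and −0.13 without control 3). The smallest p belonged to Slc3a2, the heavy chain of the cystine transporter, at −0.53 (SE 0.23), the transferase Gstm1 at −0.29 (SE 0.13) and the lipid peroxidase Gpx4 at −0.42 (SE 0.20). For Gstm1, part of a family of close copies, the groups did not overlap. Slc3a2 passed limma without control 3 (−0.81, adjusted p = 0.00524) and, free of the length and GC trend too, again (−0.59, limma adjusted p = 0.0270). Slc7a11, the light chain of the cystine transporter, was counted with the NRF2 targets and did not go with it. It stood at 0.26 (SE 0.16, limma adjusted p = 0.508). Free of the trend Slc7a11 stood at −0.07, and without control 3 as well at −0.20. Gstm1 and Gpx4 passed without control 3 (−0.38 and −0.65, limma adjusted p = 0.0283 and 0.00842) but not free of the trend. With the trend out and all 6 libraries they stood at −0.07 and −0.11, and with control 3 also left out at −0.09 and −0.24 (limma adjusted p = 0.574 and 0.297).

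In the thioredoxin system 14 of 17 tested genes were lower (median −0.21, and −0.35 without control 3). The members of this system stood at 0.15 (Txnrd1), 0.17 (Srxn1) and −0.08 (Prdx1). Mitochondrial thioredoxin Txn2 read 16.4 ± 0.881 FPKM in controls and 12.6 ± 0.616 FPKM with the mimic (SD, n = 3), with all mimics below all controls (log2 fold change −0.35, SE 0.11, limma adjusted p = 0.332). Without control 3 it passed at the same size (−0.35, limma adjusted p = 0.0328). It was −0.17 free of the length and GC trend, and without control 3 as well −0.09 (limma adjusted p = 0.575). The peroxiredoxin Prdx5 stood at −0.69 (SE 0.27, limma adjusted p = 0.358) and Txndc17 at −0.32 (SE 0.14). Both passed without control 3 (−1.02 and −0.44, limma adjusted p = 0.00499 and 0.0219). With control 3 left out and that trend removed, both passed again (−0.68 and −0.51, limma adjusted p = 0.0309 and 0.0308).

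Of 6 pentose phosphate genes beside Taldo1, 5 were lower (median −0.14, and −0.34 without control 3). Pgls, the lactonase of the oxidative branch, read 48.2, 52.2 and 52.7 FPKM in controls and 36.4, 36.5 and 38.1 FPKM with the mimic. Control 3 lay with its fellows, and the groups were far apart relative to their spread. Its log2 fold change was −0.45 (SE 0.10, limma adjusted p = 0.332), −0.43 (limma adjusted p = 0.0115) without control 3 and −0.25 (limma adjusted p = 0.695) with the trend removed. With both changes it was −0.11 (limma adjusted p = 0.428). Pgd (−0.17, SE 0.12) and Tkt, transketolase (−0.28, SE 0.22), followed. Without control 3 Tkt passed at −0.55 (limma adjusted p = 0.00900) and Pgd stood at −0.26 (0.0672). Free of the trend as well, neither passed (Tkt −0.34 and Pgd −0.26, limma adjusted p = 0.0716 and 0.117).

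Of 10 tested autophagy partners of Sqstm1, 5 were higher and 5 lower (median 0.012, and −0.12 without control 3). The receptors Tax1bp1 (0.24, SE 0.10, limma adjusted p = 0.377) and Nbr1 (0.24, SE 0.12), the scaffold Wdfy3 (0.19, SE 0.12) and the kinase Tbk1 (0.15, SE 0.11) read higher in every mimic than in any control, while Sqstm1 itself read lower. Mimic values all above control values were found in 12.6% of all genes. Tbk1 is named because its groups were apart, and was chosen after its values were seen. Free of the length and GC trend Tax1bp1 stood at 0.0089, and without control 3 as well at −0.13. Nbr1 stood at 0.16 without control 3. Free of that trend, with all 6 libraries, Nbr1 stood at 0.15, Wdfy3 at 0.05 and Tbk1 at 0.09. With control 3 left out as well, Nbr1 stood at 0.064, Wdfy3 at 0.089 and Tbk1 at 0.12. The 2 partners that passed limma's test without control 3 were both lower, where 12.2% of all genes were called lower. They were Gabarap (−0.62, limma adjusted p = 0.00691) and Gabarapl1 (−0.41, limma adjusted p = 0.0188). Free of the trend as well, Gabarap passed at −0.42 (limma adjusted p = 0.0411) and Gabarapl1 did not (−0.16, limma adjusted p = 0.324). The superoxide and peroxide enzymes Sod1 (−0.47, SE 0.29), Cat (−0.22, SE 0.11) and Sod2 (−0.03, SE 0.25) did not pass. Sod1 did without control 3 (−0.81, limma adjusted p = 0.0123), and free of the trend as well (−0.87, limma adjusted p = 0.0308). Sod2 was −0.31 without control 3 and −0.27 free of the trend, and with both changes −0.67 (limma adjusted p = 0.0514).

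**Figure D4:**
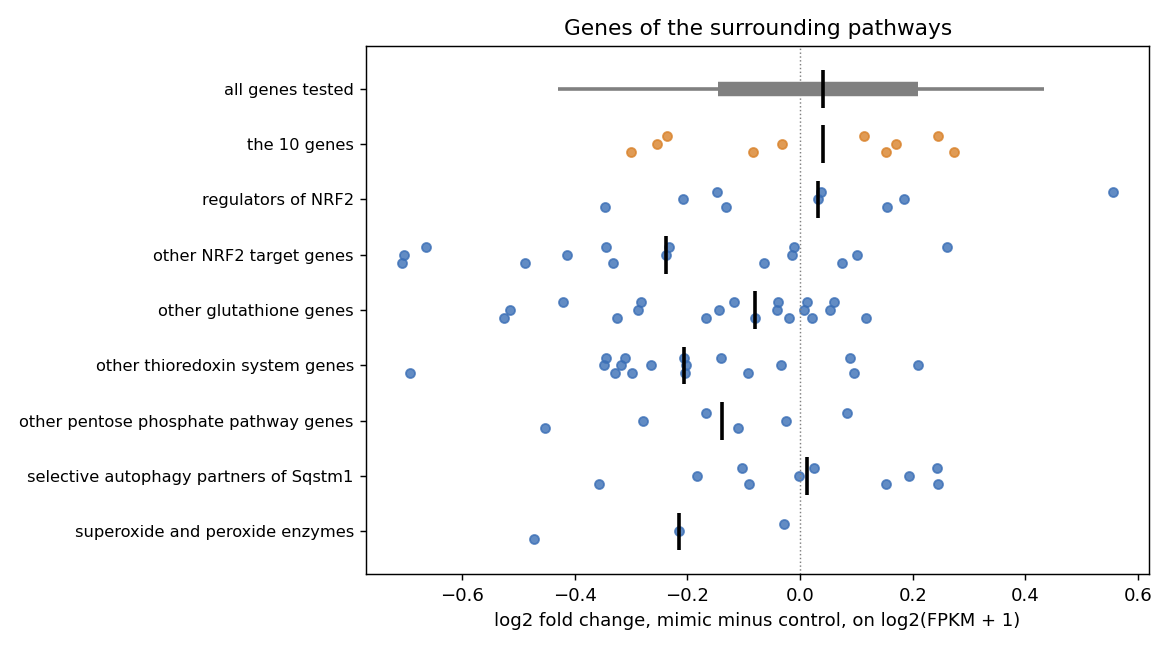
Log2 fold changes (horizontal axis, mimic minus control on log2(FPKM + 1)) of the 10 genes (orange) and of the tested genes of 7 pathway lists (blue), 1 point per gene, with black bars at medians; for all genes tested the thick gray bar spans the middle 50% and the thin one the middle 90%. The 10 genes spread to both sides of 0 (−0.30 to 0.27), and the further NRF2 targets and thioredoxin genes have medians of −0.24 and −0.21.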

How the data were processed

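Messenger RNA of 6 RAW264.7 samples was measured from total RNA with a SMARTer library kit, per the labels' protocols. The deposited table holds FPKM values, 1 per gene and sample. The authors used mm10, HISAT2, fastp and DESeq2, per the submitters' processing notes. Nothing in the sources used here gives versions, annotation, counting tool or strandedness. Symbols, lengths and 3′ UTRs came from GENCODE M21 on GRCm38 (16582 of 16665 identifiers matched). Depth was recovered from low values, of which 98.5% to 99.0% were whole fragments within 0.1 fragment. No columns were copies: controls 1 and 2 were the closest pair (chi-square 4.90 per gene).

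Genes with a mean of at least 1 FPKM were tested on log2(FPKM + 1) with limma 3.58.1 in R 4.3.3 (mean-variance trend, two-sided, Benjamini-Hochberg over all tested genes), checked on simulated data. SE and intervals are limma's; SD is of FPKM. The pseudocount understates changes of low genes. The trend on length and GC was a spline fitted to each library's deviation from the gene mean. Same-numbered libraries deviated together (correlations 0.29, 0.18 and 0.34), so a block on the numbers of the titles was tried as an alternative. The reported fit had no block. Control 2 and mimic 1, of different numbers, correlated at 0.31. Array weights were estimated gene by gene. Members and lists were chosen with earlier results of these data known. Named pathway genes are the 3 tested genes with the smallest p in each list, and those most like Nfe2l2, Gclm and Txnrd1. Mafg, Tbk1, Slc7a11, Gabarap, Gabarapl1 and Nfe2l1 were added after their values were seen. Nqo1, under the filter and untested, was named outside these rules.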

Additional observations from a re-analysis of the deposited data

How the results depend on the processing

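Of 17 alternatives, the count of genes passing limma was 0 in all but 3, and 0 to 2412 with each library left out in turn, the highest without negative control 3. Members passing ranged from 0 to 3 and pathway genes from 0 to 21 in the same way, again highest without that control. With it left out and the length and GC trend removed, 277 genes, 1 member and 8 pathway genes passed. With array weights, 4808 genes (47.3%), 4 members and 47 pathway genes passed; those weights were 0.0908 for control 3 and 0.339 for mimic 3, against 1.72 to 3.44 for the others. The members' median log2 fold change ran from −0.038 to 0.193 with a library left out, the highest without mimic 3. Signs turned for Gclm (0.18) and Prdx1 (0.087) with array weights, for Prdx1 with quantile normalisation (0.11) and without mimic 3 (0.19), and without control 3 for Keap1, Gclm and Srxn1. With a library left out in turn, Keap1 ran from −0.048 to 0.46, Gclm from −0.16 to 0.19, Srxn1 from −0.027 to 0.31, Prdx1 from −0.23 to 0.19 and Sod2 from −0.31 to 0.11. With control 3 left out and the trend removed, Maff (0.11), Mafk (0.021) and Tax1bp1 (−0.13) turned. The causes were not tested. The replicate block called 0 genes, 0 members and 0 pathway genes, and the members' median was 0.041 in that paired fit; it changed no call, with the trend removed or not. A mean of at least 5 FPKM left Srxn1 untested. Depth was least for Srxn1, at 59 to 145 fragments per library.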
